A study of Mus musculus with 10 samples.

Results

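Unperturbed C3H10 T1/2 cells were described from the 5 control libraries of a series of 10 samples. These were the 3 RNA-seq libraries of static control cells and the 2 ATAC-seq libraries of GFP control cells, chosen by their labels and by no measured value. The series asks about mechanical force, estrogen and the stretch-gated ion channel PIEZO1 in alveolar bone, and its strained and Piezo1 knockout samples were not used here. The static control cells were plated at 100000 cells/mL on flexible plates coated with collagen I and grown for 48 h before the strain period, during which they were left unstrained. Their cDNA was amplified with a kit made for full-length transcripts of single cells and sequenced as paired reads of 150 bases. The GFP control cells are the controls of the CRISPR experiment, and each ATAC-seq library was made from 50000 cells by the Omni-ATAC procedure. Both sets were grown in MEM with serum, but they were separate cultures, so a level and a peak were never measured in the same cells. The labels give the strain of the RNA-seq cells as C57BL/6 and do not say whether replicates were separate cultures, so the spread between libraries may be technical.

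C3H10 T1/2 is a mouse embryo fibroblast line that keeps mesenchymal potential, and it can be driven towards bone, cartilage, fat or muscle by defined signals. Fibroblasts build the extracellular matrix from fibrillar collagens, fibronectin and small proteoglycans, which the cell secretes and crosslinks. ATAC-seq marks open chromatin through insertion of adapters by the Tn5 transposase. Many broadly used genes start within a CpG island, a stretch of DNA that has kept its CG dinucleotides and is often open, whereas many tissue-restricted genes start in DNA poor in them.

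The 3 RNA libraries held 38491897, 36150738 and 36305998 counts, so that 3 counts, the limit that a count of 0 allows, were worth 0.0779 to 0.0830 CPM, the unit used here. CPM is a gene's count divided by the total of its library and scaled to a common size, and so a share of reads: a long transcript gives more reads per molecule, no transcript lengths were used, and ranks between genes below are therefore ranks of reads and not of mRNA molecules. Intervals and floors cover counting error only, since the reads carry no molecular identifiers. Replicate 3 stood apart from the other libraries. Over 9238 genes its median fold difference was 1.14 from replicate 1 and 1.18 from replicate 2, against 1.06 between replicates 1 and 2. It was the lowest library for 48.4% of those genes and the highest for 39.7%. The ATAC-seq lists held 15978 peaks in replicate 1 and 26652 in replicate 2, and their read depth is unknown. Merging peaks that overlapped gave 13074 regions present in both lists, called shared regions here. These took in 92.6% of the replicate 1 peaks and 51.8% of the replicate 2 peaks. Each region's fold enrichment, as the authors' peak caller gave it, is relative to its own library's local background.

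The DNA around the starts of 7 genes illustrates a range of CG content. The 7 were picked as examples and do not stand for all genes with or without a peak. Each line gives 250 bases before and 50 bases after the annotated start, read 5′ to 3′ on the gene's strand from RefSeq on GRCm38.p6, the mm10 build, and capitals mark CG dinucleotides. Eef1a1, Rplp0, Piezo1 and Vim had a shared region within 1 kb of the start, and Sparc, Bgn and Col3a1 had a peak in neither list there.
Eef1a1: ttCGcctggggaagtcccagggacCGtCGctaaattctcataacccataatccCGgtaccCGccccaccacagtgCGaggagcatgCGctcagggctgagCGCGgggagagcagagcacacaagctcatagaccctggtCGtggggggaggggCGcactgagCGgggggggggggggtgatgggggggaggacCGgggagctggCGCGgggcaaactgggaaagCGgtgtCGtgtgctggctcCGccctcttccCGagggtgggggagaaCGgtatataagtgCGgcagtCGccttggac
Rplp0: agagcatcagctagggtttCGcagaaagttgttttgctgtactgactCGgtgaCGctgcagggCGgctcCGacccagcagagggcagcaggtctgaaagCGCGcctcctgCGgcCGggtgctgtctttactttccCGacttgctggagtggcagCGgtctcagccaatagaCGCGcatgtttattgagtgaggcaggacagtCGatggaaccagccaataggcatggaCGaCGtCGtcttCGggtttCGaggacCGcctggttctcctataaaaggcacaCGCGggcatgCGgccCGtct
Piezo1: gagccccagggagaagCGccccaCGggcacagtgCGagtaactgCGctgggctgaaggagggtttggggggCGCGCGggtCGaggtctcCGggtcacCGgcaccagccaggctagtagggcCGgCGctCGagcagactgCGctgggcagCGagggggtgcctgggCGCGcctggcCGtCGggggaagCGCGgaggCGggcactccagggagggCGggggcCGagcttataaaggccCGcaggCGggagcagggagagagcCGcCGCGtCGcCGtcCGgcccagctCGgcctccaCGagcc
Vim: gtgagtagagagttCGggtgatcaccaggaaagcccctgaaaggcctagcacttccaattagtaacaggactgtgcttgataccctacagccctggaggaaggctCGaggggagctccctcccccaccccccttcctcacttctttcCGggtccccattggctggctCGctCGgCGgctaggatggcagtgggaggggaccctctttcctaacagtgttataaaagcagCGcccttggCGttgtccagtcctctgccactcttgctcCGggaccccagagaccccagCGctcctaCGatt
Sparc: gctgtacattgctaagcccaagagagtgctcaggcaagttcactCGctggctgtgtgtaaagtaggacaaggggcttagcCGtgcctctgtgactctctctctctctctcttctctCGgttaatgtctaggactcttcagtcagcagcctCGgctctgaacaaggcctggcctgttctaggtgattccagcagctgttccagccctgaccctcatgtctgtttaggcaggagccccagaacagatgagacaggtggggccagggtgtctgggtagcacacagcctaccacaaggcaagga
Bgn: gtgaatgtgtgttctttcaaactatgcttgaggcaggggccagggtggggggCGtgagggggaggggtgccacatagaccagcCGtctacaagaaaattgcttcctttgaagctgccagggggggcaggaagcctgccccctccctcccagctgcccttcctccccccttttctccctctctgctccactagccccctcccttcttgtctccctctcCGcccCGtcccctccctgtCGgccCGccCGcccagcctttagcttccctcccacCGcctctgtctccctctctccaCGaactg
Col3a1: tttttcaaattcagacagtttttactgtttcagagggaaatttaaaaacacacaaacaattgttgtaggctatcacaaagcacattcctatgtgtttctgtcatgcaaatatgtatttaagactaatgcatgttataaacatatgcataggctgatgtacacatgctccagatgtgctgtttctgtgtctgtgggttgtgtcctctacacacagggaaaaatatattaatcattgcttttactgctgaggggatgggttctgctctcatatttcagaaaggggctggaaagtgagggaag
The Eef1a1 sequence lies at chr9:78481675-78481974 on the minus strand and holds 22 CG dinucleotides. Rplp0, at chr5:115559217-115559516 on the plus strand, holds 24, and Piezo1, at chr8:122551280-122551579 on the minus strand, holds 34. Vim, at chr2:13574061-13574360 on the plus strand, holds 11. The secreted matrix genes held fewer. Sparc, at chr11:55420031-55420330 on the minus strand, holds 4, Bgn, at chrX:73483351-73483650 on the plus strand, holds 9, and Col3a1, at chr1:45311288-45311587 on the plus strand, holds none.

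Genes of the extracellular matrix led the reads. Col1a1, the larger chain of type I collagen, stood at 30162, 30310 and 29295 CPM in replicates 1 to 3 and ranked first. Col1a2, the other chain of that collagen, stood at 22798, 23274 and 21332 CPM, and Fn1, fibronectin, at 22748, 25360 and 18054 CPM. The libraries lay close together for type I collagen and spread most for Fn1, which was lowest in replicate 3. Below them came the translation elongation factors Eef1a1 at 12203 ± 706 CPM and Eef2 at 6895 ± 230 CPM (SD, n = 3, as for all later values of this form). The matrix glycoprotein gene Sparc followed at 6444 ± 572 CPM, the proteoglycan gene Bgn at 5853 ± 86.4 CPM, ferritin heavy chain Fth1 at 5817 ± 901 CPM and the mitochondrially encoded COX1 at 5212 ± 184 CPM. Of 13 mitochondrially encoded mRNAs 8 reached 10 CPM, from COX1 down to COX2 at 11.3 CPM. COX3, ATP6, ND3, ATP8 and ND4L were at 8.12, 3.65, 0.408, 0.126 and 0.0819 CPM, and what lies behind this range was not tested. Postn, periostin, was at 4759 ± 339 CPM, the intermediate filament gene Vim at 4719 ± 553 CPM, and the ribosomal stalk gene Rplp0 at 4658 ± 629 CPM. Ranks 13 to 25 held Psap, Actb, Lrp1, Pkm, Serpinh1, Mmp14, Timp3, Bsg, Acta2, Hsp90ab1, Rps2, Ahnak and Col5a1, from 3182 down to 2404 CPM.

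Reads were concentrated in few genes. The 10 leading genes of each library took 11.9% to 12.5% of its counts, the 100 leading genes 27.3% to 28.1% and the 1000 leading genes 56.9% to 58.3%. Of 46095 gene symbols, 22777 had no count in any library, and 12564 reached 1 CPM in all 3. Protein-coding genes held 97.3% of the counts. Of 21321 protein-coding symbols, 8940 (41.9%) had a mean of 10 CPM or more, 1876 of them 100 CPM or more, and 7989 (37.5%) had a mean under 0.1 CPM. The median protein-coding gene was at 3.04 CPM.

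By gene list, 42 fibrillar and matricellular matrix genes summed to 12.2%, 12.7% and 11.3% of the counts of replicates 1 to 3, the lowest in replicate 3. All but 4 of them reached 10 CPM, and their median was 480 CPM. The 44 listed cytosolic ribosomal protein genes, a part of that family, summed to 3.27%, 3.03% and 4.30%, highest in replicate 3. Of the 44, 42 had their highest value there. Cytoskeletal genes summed to between 2.36% and 2.60% over 29 members, and 15 glycolytic genes to between 1.03% and 1.26%, led by the pyruvate kinase gene Pkm at 2885 ± 266 CPM and the aldolase gene Aldoa at 1858 ± 247 CPM. How multiply mapped reads were handled is not given. Values of Gapdh, listed at 87.0 CPM, and of ribosomal protein genes are therefore uncertain, as are the sums and ranks that hold them. The 17 basement membrane genes summed to 0.436% to 0.612% and none was highest in replicate 3. The leading member, the perlecan gene Hspg2, stood at 1851, 2154 and 1310 CPM. What sets replicate 3 apart was not tested.

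Levels are given for markers of 17 cell types, 226 genes in all, and those of fibroblasts carried the most reads. That list includes the 3 leading genes Col1a1, Col1a2 and Fn1, and Col1a1 is also on the bone list. The lists were chosen with earlier results of these data known. The read total of the fibroblast list is therefore no independent check of the label. Of 15 fibroblast markers 14, all but Fap at 2.22 CPM, reached 10 CPM, against 41.9% of all protein-coding genes, and their median was 2374 CPM. At the other end, 1 of 14 epithelial, 1 of 12 endothelial, 2 of 15 haematopoietic and 0 of 12 germ cell markers did, and 11, 8, 9 and 9 of them in that order were under 0.1 CPM, against 37.5% of all protein-coding genes. Those that reached 10 CPM were epithelial Krt19 at 24.0, endothelial Flt1 at 26.2, and haematopoietic Cd34 at 189 and Lyz2 at 10.9 CPM. Cdh1, also epithelial, was at 7.44 CPM. Of 14 neural markers 3 reached 10 CPM, Tubb3 at 39.4, Nes at 28.1 and S100b at 15.3 CPM. Of 11 neural crest markers 3 did, Twist1 at 127, Snai2 at 96.1 and Ets1 at 35.1 CPM. Of 10 osteoclast markers 2 did, Ctsk at 45.1 and Nfatc1 at 32.6 CPM. Of 13 hepatocyte and endoderm markers Gata6 alone did, at 22.9 CPM. The epithelial adhesion gene Epcam, the endothelial cadherin gene Cdh5, the leukocyte gene Ptprc and the pluripotency gene Pou5f1 were each listed at 0 in all 3 libraries. Of 14 pluripotency markers 2 reached 10 CPM, Klf4 at 204 ± 3.69 and Klf2 at 80.1 ± 9.18 CPM, both of which many other cells use, and Sox2 and Nanog were at 2.28 ± 0.177 and 1.87 ± 0.546 CPM. The table also lists at 0 a run of 27 neighbouring genes on chromosome 17, 10 of them with open promoters, so a value of 0 is given as listed and not read as absence. In bulk libraries fewer cells of a type and less RNA per cell cannot be told apart.

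**Figure D1:**
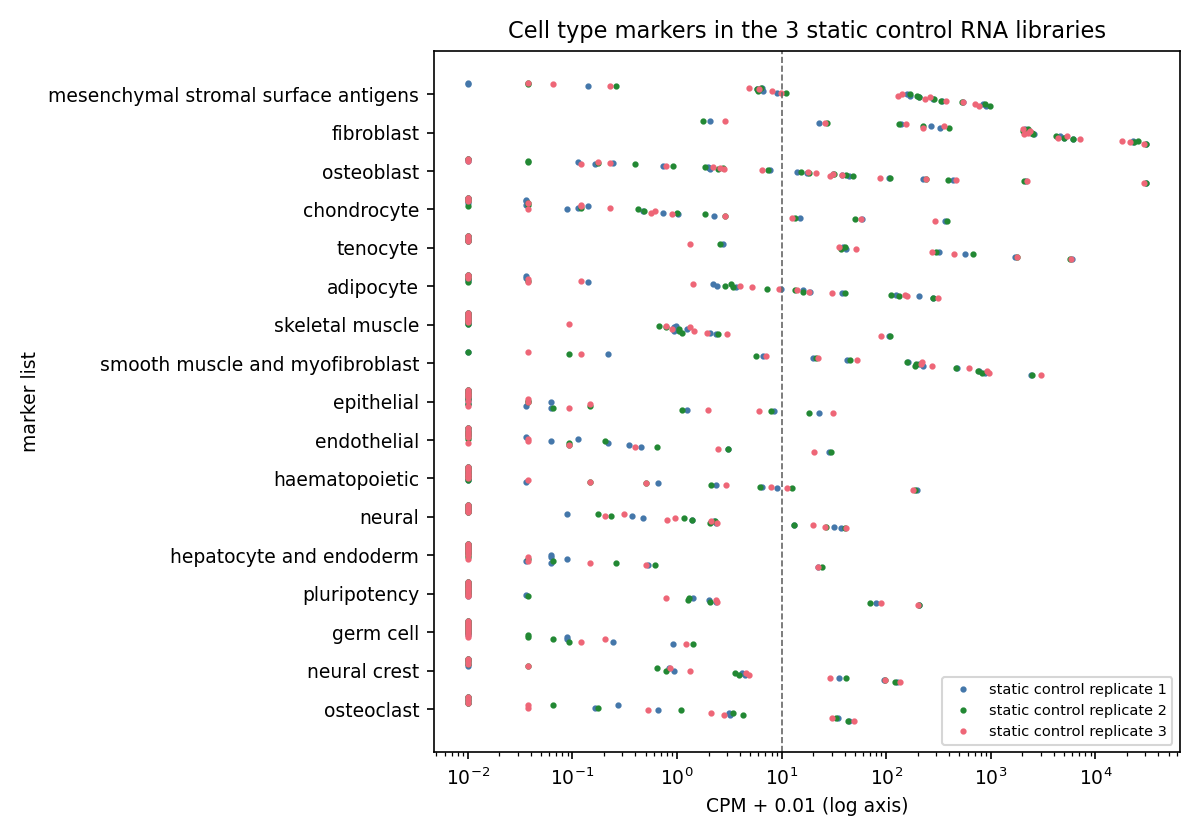
Level of each marker of 17 cell types in the 3 static control RNA libraries, as CPM + 0.01 on a log axis, 1 point per gene and library and 1 row per list; the dashed line marks 10 CPM. Fibroblast markers reach a median of 2374 CPM, whereas most epithelial, haematopoietic and germ cell markers gather near the left edge, which is 0 CPM.

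The surface antigens commonly used for mesenchymal stromal cells ranged from 881 CPM to near 0. Of 15, 8 reached 100 CPM, as did 1876 of 21321 protein-coding genes. They were the growth factor receptors Pdgfrb at 881 ± 103 and Pdgfra at 165 ± 32.9 CPM, the integrin chain Itgb1 at 808 ± 91.3 CPM, the tetraspanins Cd81 at 540 ± 4.98 and Cd9 at 350 ± 22.7 CPM, the hyaluronan receptor Cd44 at 267 ± 29.1 CPM, Ly6a (Sca-1) at 226 ± 32.4 CPM and Vcam1 at 157 ± 13.5 CPM. The remaining 7 had means under 10 CPM. Mcam (CD146) at 9.88 ± 1.01 CPM, Eng, Alcam at 5.88 ± 0.115 CPM and Nt5e lay above the median protein-coding gene, and Thy1, Ngfr and Lepr lay near 0. Eng (CD105) stood at 6.65, 5.89 and 8.02 CPM and Nt5e (CD73) at 6.44, 6.31 and 4.82 CPM. Thy1 (CD90) stood at 0, 0.0277 and 0.0551 CPM, under the limit of 3 counts in every library. Cd34, listed here among haematopoietic markers and carried by some stromal cells too, was at 189 ± 9.88 CPM.

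Among 20 bone markers, 10 reached 10 CPM, against 41.9% of all protein-coding genes. The regulator Runx2, which commits cells to bone, was at 107, 110 and 87.0 CPM, and Sp7 (osterix), which acts after it, at 30.9, 31.6 and 31.3 CPM. Both were well above 10 CPM in every library. Spp1, osteopontin, stood at 2146 ± 74.1 CPM, Alpl, the tissue-nonspecific alkaline phosphatase, at 236 ± 8.95 CPM and Dlx5 at 15.7 ± 1.82 CPM. Levels of bone matrix genes ranged widely. Osteomodulin Omd was at 39.2 ± 1.92 CPM and bone sialoprotein Ibsp at 2.00 ± 0.181 CPM. The osteocalcin genes Bglap2 and Bglap were at 2.44 ± 0.379 and 0.0989 ± 0.0689 CPM, and how reads mapping to both were counted is not given. Dmp1, Mepe and Sost, genes of osteocytes, were each under 1 CPM, and Sost was listed at 0.

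Levels of cartilage, tendon, fat and muscle markers were uneven within each list. In cartilage the regulator Sox9 was at 55.6 ± 4.74 CPM, while its partners Sox5 and Sox6 were at 0.515 ± 0.0791 and 0.173 ± 0.211 CPM. The collagen gene Col11a1 led the list at 345 ± 48.6 CPM and Col2a1 was at 13.6 ± 1.31 CPM. The aggrecan gene Acan had a count in 1 library only, and 3 of 15 members reached 10 CPM, against 41.9% of all protein-coding genes. Tendon regulators Scx and Mkx stood at 43.3 ± 7.55 and 37.9 ± 2.53 CPM and the proteoglycan gene Fmod at 1755 ± 51.0 CPM, while Tnmd, Thbs4 and Kera were listed at 0. Of 10 tendon markers 6 reached 10 CPM, with Bgn, Tnc and Egr1 at 5853, 563 and 297 CPM. In fat, Cebpb and Cebpd were at 166 ± 36.5 and 129 ± 21.0 CPM and the lipid droplet coat gene Plin2 at 291 ± 16.3 CPM. Scd1, Dgat2 and Cebpa were at 36.3, 17.6 and 14.5 CPM, and 6 of 16 fat markers reached 10 CPM. The master regulator Pparg was at 8.86 ± 1.43 CPM and the adipokine gene Adipoq at 0.0459 ± 0.0573 CPM. In skeletal muscle Myod1, Myf5, Myog, Myf6 and Pax7 were all listed at 0. Pax3 was at 1.01 ± 0.281 CPM, and Mef2c, which is also used outside muscle, alone of 14 reached 10 CPM, at 102 ± 10.8 CPM.

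Of 12 smooth muscle and myofibroblast markers, 9 reached 10 CPM, against 41.9% of all protein-coding genes. Acta2, the smooth muscle actin of myofibroblasts, stood at 2404, 2499 and 3027 CPM, Tagln at 472, 462 and 613 CPM, and Cnn2 at 770, 750 and 910 CPM. Replicate 3 was highest for all of these, and for 11 of the 12 smooth muscle and myofibroblast markers. Smtn, Myl9, Actg2 and Lmod1 were at 205, 179, 46.3 and 21.2 CPM. Lower on the list, Cnn1 was at 6.49 CPM and the smooth muscle myosin gene Myh11 at 0.134 ± 0.0657 CPM. The coactivator gene Myocd had a count in replicate 3 only.

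Of 83 listed transcription factors of mesenchyme, 50 reached 10 CPM, against 41.9% of all protein-coding genes. Their median was 32.3 CPM, against 3.04 CPM over all protein-coding genes. Nfix led at 623 ± 39.1 CPM. The mesenchyme homeobox genes Prrx1 and Prrx2 stood at 345 ± 22.3 and 220 ± 29.6 CPM, the T-box gene Tbx15 at 214 ± 11.4 CPM, Shox2 at 143 ± 5.94 CPM and Twist1 at 127 ± 7.41 CPM. The AP-1 family members Fosl2, Jund, Junb, Jun and Fos lay between 155 and 426 CPM. The limb-identity gene Pitx1 stood at 65.2 CPM, whereas Tbx4 had 0.00922 CPM and Tbx5 and Tcf21 were listed at 0.

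The Hox genes, whose order along each cluster follows position along the body axis, had reads mainly from the Hoxa, Hoxc and Hoxd clusters. Hoxc10 stood at 50.9, 52.3 and 59.99 CPM, Hoxa10 at 37.1, 38.7 and 38.9 CPM, Hoxc6 at 38.5, 39.9 and 31.5 CPM and Hoxa9 at 28.0, 28.6 and 29.1 CPM. In every library the Hoxc10 value was the highest. Hoxd9, Hoxd8, Hoxa11 and Hoxc9 lay between 10.3 and 14.9 CPM, and no other Hox gene reached 10 CPM. Hoxb genes were under 1 CPM except Hoxb9 at 2.01 ± 0.752 CPM. Hoxd10 stood at 0.293 ± 0.187 CPM, against 14.9 ± 1.91 CPM for its neighbour Hoxd9, and Hoxd11, Hoxd12 and Hoxd13 were each under the limit of 3 counts.

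**Figure D2:**
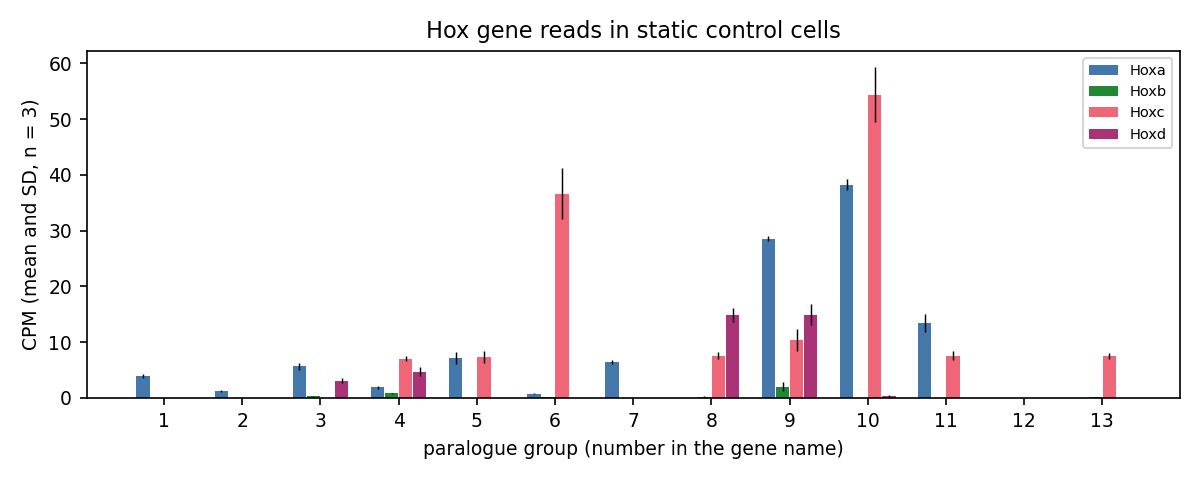
Level of each Hox gene in static control cells by paralogue group (x axis) and cluster (colour), as mean CPM on a linear axis with bars for the SD over 3 libraries. Hoxc10, Hoxa10, Hoxc6 and Hoxa9 stand highest, and the Hoxb bars stay near 0.

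Of the signals these cells could send and receive, several were abundant. Among the 58 listed ligands the chemokine gene Cxcl12 led after Spp1, at 1715, 1763 and 1622 CPM. Next came the macrophage growth factor gene Csf1 at 542 ± 44.3 CPM and the chemokine gene Cxcl1 at 437 ± 39.8 CPM. The procollagen protease gene Bmp1 was at 376 ± 15.9 CPM, the Wnt antagonist gene Sfrp1 at 306 ± 12.4 CPM and Fgf7 at 271 ± 18.7 CPM. Tnfsf11, the osteoclast differentiation factor RANKL, was at 0.00866 CPM, and its decoy receptor gene Tnfrsf11b at 7.22 ± 0.617 CPM. Among the 47 listed receptors and channels, which leave out others such as Itgb1, Piezo1 stood second to Pdgfrb. It was at 498, 554 and 380 CPM, with replicate 3 the lowest. Il6st, the shared IL-6 family receptor chain, was at 427 ± 138 CPM and Fgfr1 at 402 ± 19.8 CPM. The paralogue Piezo2 was at 25.3 CPM. Estrogen receptor alpha Esr1 was at 14.2 CPM and Esr2 at 0.00918 CPM. In all 37 of 47 listed receptors and channels and 30 of 58 ligands reached 10 CPM, against 41.9% of all protein-coding genes.

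A promoter region, meaning a shared region within 1 kb of an annotated start, became more frequent with read level up to 10 CPM and little more so above it. Of 17026 protein-coding genes with a start in the RefSeq promoter table, 5564 (32.7%) had a promoter region. The share was 1.43% ± 0.102 of genes under 0.1 CPM, 12.9% ± 0.112 at 0.1 to 1 CPM, 34.6% ± 0.476 at 1 to 10 CPM, 62.4% ± 0.133 at 10 to 100 CPM and 67.2% ± 0.257 at 100 CPM or more. Each SD is over the 3 RNA libraries used to class the genes, with the same peaks. By mean level, 4594 of 7245 genes at 10 CPM or more (63.4%) had a promoter region and 1163 (16.1%) had a peak in neither list, and 81 of 6429 genes under 0.1 CPM (1.26%) had a promoter region. A peak in replicate 2 alone, the longer list, was found for 19.5% of genes at 10 to 100 CPM and 18.02% at 100 CPM or more. The share under 0.1 CPM was 2.18% from the replicate 2 list by itself, 3.04% with a window of 5 kb, 3.19% over all matched genes and 9.59% over genes with at least 10 counts in all, and the share at 10 CPM or more was 83.3% from the replicate 2 list.

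**Figure D3:**
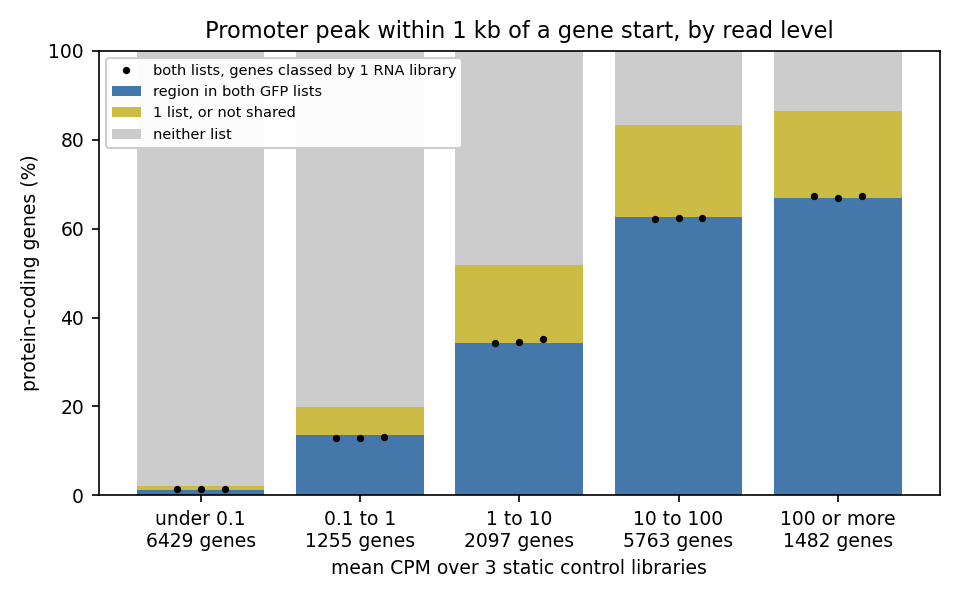
Percent of protein-coding genes with a region in both GFP lists within 1 kb of a start, with a peak in 1 list or with peaks of both that did not overlap, and with a peak in neither list, by class of mean CPM over 3 static control libraries. Points give the share with a region in both lists when the genes are classed by 1 RNA library; the share climbs from 1.43% ± 0.102 under 0.1 CPM to 67.2% ± 0.257 at 100 CPM or more.

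Read in the other direction, genes with a promoter region had a median of 36.7, 36.6 and 35.04 CPM in replicates 1 to 3, and genes with a peak in replicate 2 alone one of 28.2 ± 0.229 CPM. The median of genes with a peak in neither list was 0 CPM. On the log2(CPM + 0.1) scale the median with a promoter region was higher than the median without by 8.19, 8.17 and 8.11. This difference depends on genes with few or no reads, and was 5.17 with a pseudocount of 1 and 1.76 over genes with at least 10 counts in all. Genes are not replicates, so no test was made. Presence went with level, but among the 5564 genes with a promoter region strength did not. Spearman's rho between the lower of the 2 fold enrichments and the level was -0.0157, -0.0172 and -0.0211 in replicates 1 to 3, with a mean of -0.0180. Genes with a peak in 1 list only are outside this comparison. The fifth of genes with the weakest regions had a median of 38.4 CPM and the fifth with the strongest 34.6 CPM.

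The 10 genes with the strongest promoter regions ranged in level from 0.160 CPM, for Prr11, to 199 CPM, for Mthfd2. Ensa, an inhibitor of the phosphatase PP2A in mitosis, had fold enrichments of 12.8 and 13.0 and 103 ± 2.26 CPM. Immt, of the mitochondrial inner membrane, had 13.8 and 12.6 and 115 ± 6.82 CPM, and Mthfd2, of mitochondrial folate metabolism, had 11.3 and 12.0 and 199 ± 0.781 CPM. A region at 11.0 in both lists lay between the divergent genes Prr11 and Ska2, at chr11:87108557-87109583, yet these had 0.160 ± 0.140 and 0.631 ± 0.192 CPM. The Piezo1 promoter region, at chr8:122551427-122551637, was weak, with fold enrichments of 3.80 and 3.25. It began just upstream of the annotated Piezo1 start and overlapped the sequence printed above.

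Some of the genes with the most reads had no promoter region. Of the 25 leading genes with a listed start, 11 had one, 10 had a peak in neither list and 4 had a peak in 1 list. Of the leading 500, 344 (68.8%) had a promoter region and 81 (16.2%) had a peak in neither list, near the 66.9% and 13.6% of all genes at 100 CPM or more. The 10 leading genes with a peak in neither list were Eef2, Sparc, Bgn, Postn, Timp3, Ahnak, Col6a1, Col3a1, Spp1 and Rps4x, from 6895 ± 230 to 1995 ± 403 CPM. Sparc, Bgn, Postn, Timp3, Col6a1, Col3a1 and Spp1 among them encode secreted matrix proteins. Of 202 genes at 100 CPM or more with a peak in neither list, 135 (66.8%) had a shared region 1 to 50 kb from a start. This was near the 70.0% of all genes at 100 CPM or more. Regions counted in this way can be promoter regions of neighbouring genes. Sparc had 5 shared regions 1 to 50 kb from its start and Postn none.

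**Figure D4:**
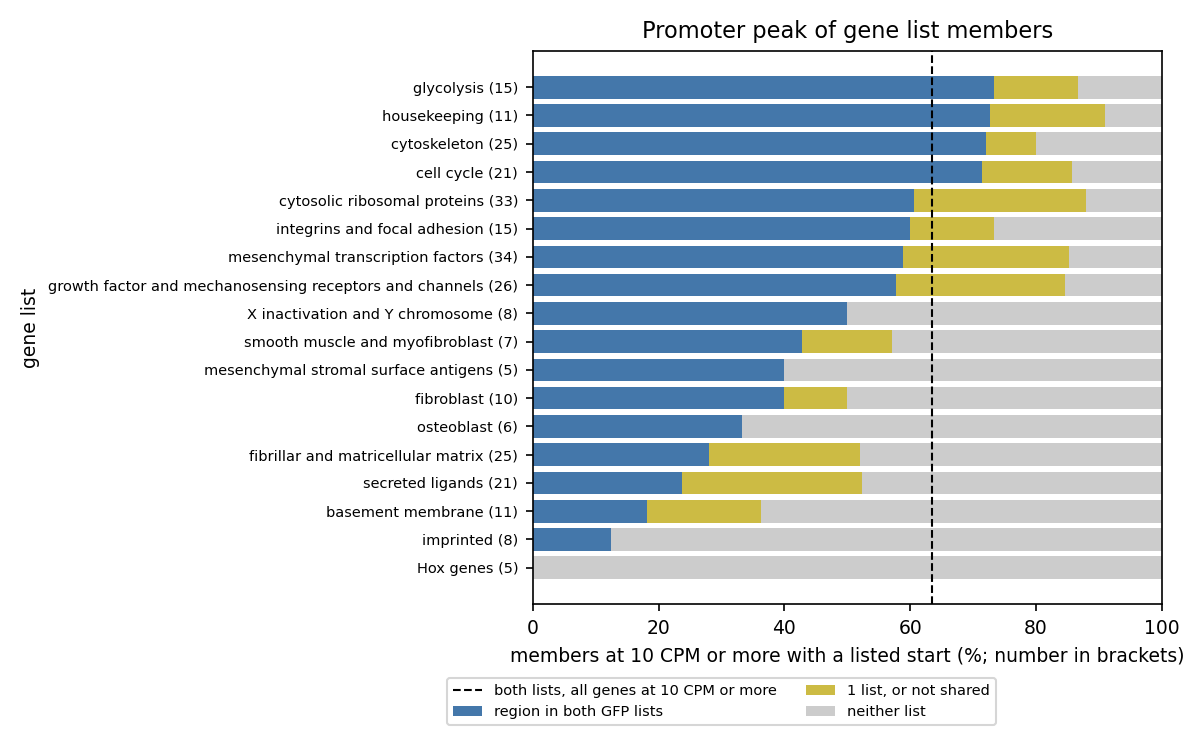
Members of each gene list with a mean of 10 CPM or more and a listed start, as percent with a region in both GFP lists, with a peak in 1 list or peaks that did not overlap, and with a peak in neither list, with the number of members in brackets. The dashed line is 63.4%, the share of all such protein-coding genes; glycolytic, cytoskeletal and cell cycle genes lie to its right, and matrix, basement membrane, ligand, imprinted and Hox genes far to its left.

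The lists differed in how often members at 10 CPM or more had a promoter region, to be read against 63.4% of all such genes. Glycolytic genes had one in 11 of 15, cell cycle genes in 15 of 21, cytoskeletal genes in 18 of 25 and ribosomal protein genes in 20 of 33. Matrix genes had one in 7 of 25, and 12 of the 25 had a peak in neither list, against 16.1% of all. Col1a1, Fn1, Lox, Thbs1, Col5a2 and 8 other matrix genes at 10 CPM or more had no start in the promoter table and are outside these 25. Taking either end of the gene span, 6 of these 13 (Fn1, Lox, Col5a2, Thbs1, Loxl1 and Ccn2) had a shared region and Col1a1 had none. Among the 25, those with a region were Col5a1, Col6a2, Tnc, Fbln2, Fbn1, Fbln5 and Col16a1. Basement membrane genes had one in 2 of 11, the pair Col4a1 and Col4a2, which share a single region with fold enrichments of 4.0 and 4.78. Secreted ligands had one in 5 of 21, among them Csf1, Cxcl1 and Fgf7, while Cxcl12 had a peak in neither list. Transcription factors of the mesenchymal list had one in 20 of 34, among them Runx2, with 4.55 and 4.91, and Twist1, with 5.38 and 4.44.

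Hox and imprinted genes stood at the low end of the same scale. All 5 Hox genes at 10 CPM or more with a listed start (Hoxa9, Hoxa10, Hoxa11, Hoxd8 and Hoxd9) had a peak in neither list, and none of these 5 had a shared region 1 to 50 kb away. Among imprinted genes, which are transcribed from the maternal or the paternal copy, Gnas at 1369 ± 137 CPM alone of 8 had a promoter region, and the other 7, with Grb10 at 428 ± 71.3, Igf2r at 278 ± 63.8 and Igf2 at 173 ± 9.74 CPM, had a peak in neither list. The Gnas region lay at an internal start, and Gnas had none at either end of the gene span. These are counts of few members, and nothing particular to either list was tested.

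Promoter regions also went with CpG content at a given level. The CpG ratio is the number of CG dinucleotides in the 300 bases divided by the number the base composition would give, and it was taken over 14289 genes with a single listed start. Among genes at 10 CPM or more, a promoter region was found in 23.2% of genes with a ratio under 0.2, 37.5% at 0.2 to 0.4, 56.1% at 0.4 to 0.6, 64.1% at 0.6 to 0.8 and 67.8% at 0.8 or more. The median level in these classes lay between 36.8 and 45.3 CPM. A high ratio without reads went with few regions: of genes under 0.1 CPM, 8.68% had a promoter region at a ratio of 0.8 or more and 0.277% at a ratio under 0.2. The median ratio was 0.827 for genes at 10 CPM or more with a promoter region and 0.701 for those with a peak in neither list. It was 0.20 for genes under 0.1 CPM with a peak in neither list. Most genes at 10 CPM or more with a peak in neither list were thus not poor in CpG: 339 of 915 (37.0%) had a ratio under 0.6. With a promoter region the share was 13.3%.

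**Figure D5:**
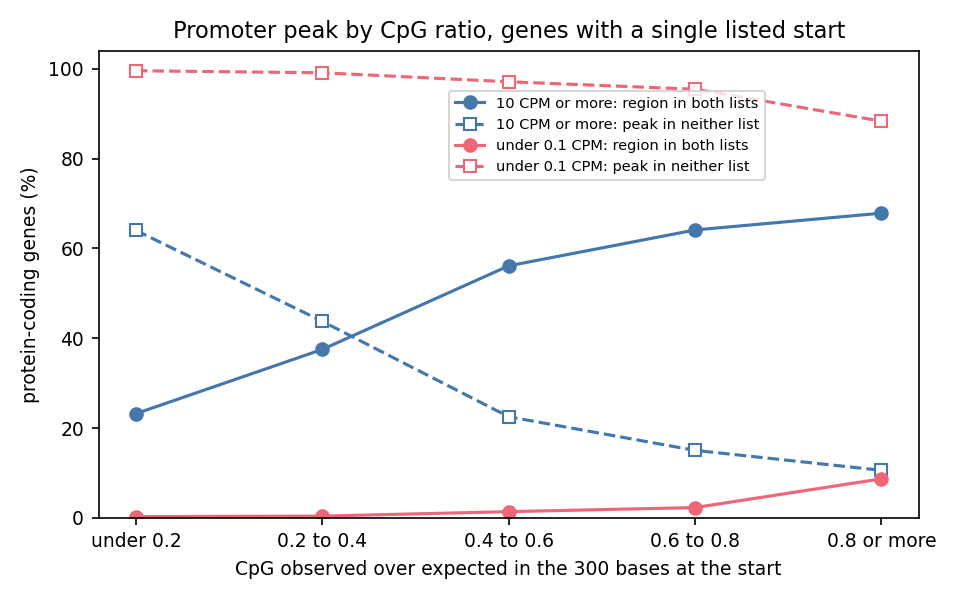
Percent of protein-coding genes with a single listed start that had a region in both lists (filled) or a peak in neither list (open) within 1 kb, by CpG ratio of the 300 bases at the start, for genes at 10 CPM or more (blue) and under 0.1 CPM (red). At 10 CPM or more the share with a region in both lists runs from 23.2% to 67.8%, while under 0.1 CPM it stays at 8.68% or less.

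The matrix genes were poor in CpG at their starts. Of 19 at 10 CPM or more with a single listed start, 15 had a ratio under 0.6, against 17.8% of all single-start genes at 10 CPM or more, and their median was 0.441. Ribosomal protein genes had a median of 0.855 and cell cycle genes one of 0.940. In the sequences printed above the ratio was 0.697 for Eef1a1, 0.928 for Rplp0, 0.834 for Piezo1, 0.421 for Vim, 0.174 for Sparc, 0.317 for Bgn and 0 for Col3a1. Low CpG did not coincide fully with the missing regions: of the 15 low-ratio matrix genes, 3 had a promoter region and 7 a peak in neither list, whereas among 1004 other genes at 10 CPM or more with a ratio under 0.6 the shares were 47.5% and 33.1%. Vim had a region with fold enrichments of 5.49 and 6.48 despite its low ratio, and Igf2r, with a ratio of 0.910, had none.

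Short motifs in the same 300 bases, searched on both strands, differed in frequency between these classes. Each match is only a run of letters. The GC box letters GGGCGG were found in 46.3% of all 14289 promoters, 73.0% of those at 10 CPM or more with a promoter region, 60.8% of those at 10 CPM or more with a peak in neither list and 18.5% of those under 0.1 CPM with a peak in neither list. For the ETS letters CCGGAAG the shares in that order were 12.0%, 23.7%, 14.2% and 2.74%. The TATA box letters TATAAA ran the other way, with 14.2%, 5.28%, 9.07% and 24.4%, as did the AP-1 letters TGANTCA, with 7.20%, 3.95%, 5.79% and 11.0%. For CCAAT the shares were 39.8%, 44.0%, 29.9% and 40.0%, lowest in genes at 10 CPM or more with a peak in neither list.

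The shared regions were spread widely around listed starts. Of those with a distance to a listed start, 45.9% lay within 1 kb, 34.1% over the start itself, 41.1% beyond 10 kb and 16.9% beyond 50 kb. The starts of 4295 protein-coding genes are not listed, so regions at them count as farther away. Of 1687 such genes at 10 CPM or more, 54.6% had a shared region at either end of the gene span. The shares beyond 10 and 50 kb are therefore not shares of distal regions alone. Regions found in replicate 2 alone lay within 1 kb in 30.3% of cases. The 5820 shared regions within 1 kb had a median lower fold enrichment of 5.35 and the 6848 beyond 1 kb one of 5.00, and Spearman's rho of the fold enrichments between the lists was 0.689 over all 13074 shared regions. A shared region 1 to 50 kb from a start was found for 25.1% of genes under 0.1 CPM and for 54.7% to 58.9% in the classes from 0.1 to 100 CPM. For genes at 100 CPM or more the share was 70.0%. These shares leave out only regions within 1 kb of the gene's own starts. They include promoter regions of neighbouring genes and are not shares of distal regions alone.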

How the data were processed

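Only the 3 static control RNA-seq libraries and the 2 GFP control ATAC-seq libraries were used, grouped by their labels. The members and gene lists were chosen with earlier results of these data known. The authors deposited whole-number read counts per gene symbol. The submitters' processing notes name mm10 with Trim Galore 0.6.5, STAR, HTSeq and DESeq2. Strandedness, annotation and the handling of multiply mapped reads remain not given in the sources used here. For that reason, values of multi-copy families (Gapdh, ribosomal proteins), overlapping genes and genes with an antisense partner are uncertain. The authors also deposited 1 peak list per ATAC-seq library with blacklisted regions removed, and those notes name Trim Galore 0.6.5, Bowtie2 2.4.2 and MACS2 for it. In these deposited lists a peak carries its fold enrichment, a ratio, and −log10 p and q values. Whether reads were shifted for Tn5, and which MACS2 version and threshold were applied, is likewise not given in the sources used here.

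Counts were divided by each library's total to give CPM. The planned levels per transcript length were replaced by CPM, since no lengths were used. All rows name genes. Of 46095 symbols, 41483 matched a RefSeq GRCm38.p6 symbol and 1057 a synonym, and 3555 (0.249% of counts) matched neither. Replicates differed beyond sampling noise (chi-square per degree of freedom 7.25 to 44.8). Peaks overlapping by at least 1 bp were merged, and a gene was assigned by a window of 1 kb each side of any of its starts in the RefSeq promoter table, which held 17026 of 21321 protein-coding genes. Differences of medians used log2(CPM + 0.1). Named genes were the 25 with the highest mean CPM (without predicted, clone-named and pseudogene models), the defining and up to 6 leading members of each list, the 10 leading genes with a peak in neither list, the 10 under 0.1 CPM with the strongest promoter region, the 10 with the widest range at 10 CPM or more, the 10 strongest promoter regions, and Piezo1. Genes named beyond this rule were chosen after their values were seen. Of 12 short motifs searched in the promoters, 5 are given. No test between groups was made. Scripts were tested on simulated data and ran in Python 3.11.15 (pandas 2.3.3, numpy 2.4.6), with edgeR 4.0.16 in R 4.3.3 for TMM factors only. The alternatives tried were other windows, overlaps and peak thresholds, single peak lists, all matched genes, a count filter, another pseudocount, TMM scaling and leaving out each RNA library.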

Additional observations from a re-analysis of the deposited data

How the results depend on the processing

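No paired analysis was possible because the results come from no test and the RNA-seq and ATAC-seq cells are separate cultures. The share of genes at 10 CPM or more with a promoter region (63.4%) was 62.2% with a window of 0.5 kb, 66.8% with 5 kb, 48.3% when each peak had to overlap by at least 50% of its length, 58.3% with peaks at −log10 q of 5 or more, and 64.6% to 83.3% from a single peak list. The share under 0.1 CPM (1.43%) was 1.26%, 3.04% and 1.06% with the windows of 0.5 and 5 kb and the stricter overlap, 2.18% from the replicate 2 list, 3.19% over all matched genes, and 9.59% over genes with at least 10 counts in all, a filter that removes most genes of that class. The log2 difference in medians (8.15) was 8.09 with 5 kb, 7.44 with the stricter overlap, 8.07 with stricter peaks, 8.14 to 8.42 from a single list, 8.23 over all matched genes, 5.17 with a pseudocount of 1 and 1.76 over genes with at least 10 counts, so its size rests on the genes with few or no counts. Taking either end of the gene span for all 21321 protein-coding genes, an alternative chosen after seeing the data, gave 58.6%, 2.11% and 7.92. By that rule 13 of 38 matrix genes and 0 of 8 Hox genes at 10 CPM or more had a shared region.

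Without each RNA library in turn the values were 63.3% to 63.4%, 1.38% to 1.49% and 8.14 to 8.18, and 8919 to 8959 genes reached 10 CPM, against 8940. TMM scaling moved none of these beyond the spread between libraries. The 25 leading genes shared 23 to 25 members with those of each such alternative, and of 128 list counts 5 changed, none by over 1.5 times. CPM without transcript length, planned as an alternative, is the scale used throughout. The ATAC-seq depth is unknown, so a peak in neither list does not show closed chromatin. Groups of 2 and 3 libraries were not screened for single outlying samples.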

Other observations

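Cell cycle genes were transcribed, with 26 of 28 at 10 CPM or more, against 41.9% of all protein-coding genes. The cyclin gene Ccnd2 stood at 548 ± 13.3 CPM, the cyclin-dependent kinase gene Cdk4 at 391 ± 52.5 CPM, the inhibitor gene Cdkn1a at 217 ± 13.8 CPM, the topoisomerase gene Top2a at 182 ± 26.2 CPM and Trp53 at 128 ± 5.93 CPM. The 2 members that did not reach 10 CPM were the neighbouring tumour suppressor genes Cdkn2a and Cdkn2b on chromosome 4. Both were listed at 0 in all 3 libraries with a peak in neither list near their starts. Their neighbour Mtap stood at 242, 239 and 238 CPM with a promoter region of fold enrichments 4.22 and 4.73, and the lncRNA gene Gm12610, whose span includes Cdkn2b, held 6 shared regions within its span.

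Open promoters at genes without reads were rare and partly clustered. Of 4812 protein-coding genes with a listed start and 0 counts in all 3 libraries, 36 (0.748%) had a promoter region, and 12 of the 36 lay on chromosome 17. There, 27 neighbouring protein-coding genes from Vwa7 to H2-D1, at 35016360 to 35267497, were all listed at 0, and 10 of the 24 with a listed start had a promoter region: Msh5, Ddah2, Abhd16a, Csnk2b, Gpank1, Bag6, Prrc2a, Nfkbil1, Atp6v1g2 and Ddx39b. No other of the 809 runs of 2 or more neighbouring genes at 0 held more than 1 promoter region. Several of these genes, such as Bag6, Ddx39b and Csnk2b, are used by most cells, so values of exactly 0 in the table need not mean absent RNA, and how they arose was not tested. The region at Prrc2a had fold enrichments of 10.2 and 8.94.

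Genes of the Y chromosome had reads, with Ddx3y at 76.2, 70.3 and 55.9 CPM, Eif2s3y at 64.9, 57.4 and 59.7 CPM and Kdm5d at 56.2, 60.6 and 37.3 CPM, whereas Xist stood at 0.130, 0 and 0.0275 CPM. Among genes at 10 CPM or more, 63.4% had a promoter region. By autosome with listed starts the share ran from 54.0% on chromosome 6 to 73.7% on chromosome 1. It was 45.5% on the X chromosome and 0 of 4 genes on the Y chromosome, and what lies behind these differences was not tested. The osteocyte gene Dmp1 had a promoter region with fold enrichments of 7.10 and 7.32 at 0.207 CPM, which lay at an internal start and not at either end of the gene span, and the factor gene Six2 one of 4.96 and 5.45 while listed at 0.

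The genes with the widest range between libraries were Zbed6, Tnks, Aak1, Gbp7, Rnf213, Elk4, Abhd2, Cbl, Zzef1 and Lnpep. All 10 were highest in replicate 2 and lowest in replicate 3. Zbed6 stood at 17.8, 29.4 and 5.04 CPM, and Rnf213 at 221, 403 and 127 CPM.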
